A study of Mus musculus with 9 samples.

Results

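The genes for 5 fibroblast growth factor (FGF) ligands, Fgf4, Fgf5, Fgf8, Fgf15 and Fgf17, and for the 4 FGF receptor kinases, Fgfr1, Fgfr2, Fgfr3 and Fgfr4, were followed across 3 culture states of the mouse embryonic stem cell line E14 (strain 129/Ola). These 9 genes were chosen by name, with earlier results of these data known, and all 9 were found among the 38293 genes of the count table. mESC-2i, the naive state, were kept in serum-free N2B27 with leukaemia inhibitory factor (LIF, 10 ng/mL), the MEK inhibitor PD0325901 (1 µM) and the GSK3 inhibitor CHIR99021 (3 µM). mESC-ser, which the study treats as primed, grew on gelatin in 15% foetal bovine serum with the same LIF dose and neither inhibitor. EpiLC, or epiblast-like cells, were derived from the naive cells on fibronectin in N2B27 with activin A (20 ng/mL), bFGF (12 ng/mL) and knockout serum replacement (KSR, 1%), so an FGF ligand was part of their medium. Poly-A RNA was sequenced from 3 biological replicates per state, all from 1 cell line. What separates the replicates is not given beyond that word, so the p-values measure the spread between these libraries.

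FGF ligands are secreted proteins that bind receptor tyrosine kinases on the cell surface together with heparan sulfate. The bound receptor signals through adaptor proteins, RAS and RAF to the kinases MEK and ERK, and ERK in turn raises inhibitors that damp the pathway. In the early mouse embryo, epiblast cells secrete FGF4, which drives neighbouring inner cell mass cells towards primitive endoderm, and in embryonic stem cells the same ligand is an autocrine stimulus to leave naive pluripotency. The MEK inhibitor of 2i medium acts below the receptors, and Fgf5 is a classic marker of the post-implantation epiblast that EpiLC model.

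The 5 ligand genes and the 4 receptor genes lie on 6 chromosomes. In GRCm38, the build the files use (mm10), Fgf4 (ENSMUSG00000050917) spans chr7:144847367-144865243 on the plus strand. Fgf15 (ENSMUSG00000031073) follows on the same strand 31288 bp further on, at chr7:144896531-144900953, and Fgf3 ends 2931 bp before the span given for Fgf4, so these genes form a ligand cluster. Fgf5 (ENSMUSG00000029337) lies at chr5:98254184-98277030 (plus strand), Fgf8 (ENSMUSG00000025219) at chr19:45736798-45742915 (minus strand) and Fgf17 (ENSMUSG00000022101) at chr14:70636203-70642268 (minus strand). The receptor genes were Fgfr1 (ENSMUSG00000031565, chr8:25513654-25575718, plus strand), Fgfr2 (ENSMUSG00000030849, chr7:130162451-133123350, minus strand), Fgfr3 (ENSMUSG00000054252, chr5:33721674-33737068, plus strand) and Fgfr4 (ENSMUSG00000005320, chr13:55152640-55168759, plus strand).

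Fgf4 and Fgf5 were the ligand genes with the highest level per length in the stem cell states and in EpiLC, respectively, and the promoter sequences of these genes are shown for that reason. RefSeq (GRCm38.p6) gave promoter entries for 5 of the 9 genes, and the 250 bases before the RefSeq start were taken. For Fgf4 this start differs from that of the gene span above, which begins further upstream, at 144847367. The Fgf4 window, which ends at 144861385, therefore lies inside that span. The strings TATATA and TATAAA, the GC box GGGCGG, the CCAAT box and the octamer motif ATGCAAAT were searched on both strands. TATATA is its own reverse complement and was counted once per position. Matches are in capitals, and a match on the other strand appears as its reverse complement.
Fgf4, chr7:144861136-144861385, plus strand: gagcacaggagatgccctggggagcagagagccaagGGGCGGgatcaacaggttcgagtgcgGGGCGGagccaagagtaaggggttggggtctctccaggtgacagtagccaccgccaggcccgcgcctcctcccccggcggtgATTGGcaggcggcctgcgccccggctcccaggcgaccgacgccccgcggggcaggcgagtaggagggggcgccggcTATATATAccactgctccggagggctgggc
Fgf5, chr5:98253934-98254183, plus strand: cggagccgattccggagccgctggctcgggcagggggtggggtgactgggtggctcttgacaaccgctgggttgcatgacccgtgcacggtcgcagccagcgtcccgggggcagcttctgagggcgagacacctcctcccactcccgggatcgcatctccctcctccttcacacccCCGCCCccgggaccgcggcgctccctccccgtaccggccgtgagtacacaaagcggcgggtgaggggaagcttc
The Fgf4 window held 2 overlapping TATATA matches that began 30 and 28 bases before the start, 2 GC boxes 214 and 188 bases before it and 1 CCAAT box 106 bases before it. The Fgf5 window held 1 GC box, 74 bases before the start, and none of the other strings. Of the 32851 promoters of the RefSeq table, 5.25% held TATATA, 12.4% TATAAA, 32.7% a GC box, 33.8% a CCAAT box and 1.60% the octamer. The windows were alike in base composition, with 71.2% G and C and 21 CpG dinucleotides for Fgf4 against 70.8% and 24 for Fgf5, where the median promoter had 6 CpG. These matches describe the sequence and were not measured as bound sites.

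The libraries held between 7187576 and 16829549 counts. Levels are given as CPM, counts relative to library size, scaled by TMM, which adjusts for RNA composition, and levels of different genes were set side by side only per kilobase of exon (RPKM). A gene was called where the edgeR adjusted p was under 0.05 and the absolute log2 fold change over 0.5. The pluripotency genes Pou5f1, Sox2 and Nanog summed to between 1102 and 2243 CPM in every library. The 5 naive markers (Klf4, Zfp42, Esrrb, Tbx3 and Prdm14) summed to 1585 to 1619 CPM in mESC-2i, 1055 to 1116 in the mESC-ser libraries and 27.4 to 31.9 in EpiLC, while Otx2, Pou3f1 and Dnmt3b, markers of the formative state, summed to 71.6 to 80.3 CPM in mESC-2i, 605 to 707 in the mESC-ser libraries and 1505 to 1584 in EpiLC. mESC-ser lay between the other states on both sums. Of the naive markers, Zfp42 had its highest mean in mESC-ser instead (293, 353 and 11.8 CPM for mESC-2i, mESC-ser and EpiLC). Pou5f1 had means of 873, 790 and 1007 CPM (mESC-2i, mESC-ser and EpiLC), whereas Nanog went from 650 to 287 and 61.3 CPM and Sox2 from 468 to 509 and 61.8 CPM.

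Fgf5 had the widest range of the ligand genes. The mESC-2i libraries held 0, 2 and 1 counts of Fgf5. The mESC-ser libraries stood at 4.55, 3.99 and 3.16 CPM and the EpiLC libraries at 125, 115 and 126 CPM. The states did not overlap at any step. Since mESC-2i lay at the limit of detection, the ratio was taken on pooled counts, 167 in mESC-ser and 2995 in EpiLC against 3. It came to 42.2 for mESC-ser over mESC-2i (95% exact interval 14.2 to 207) and 1336 for EpiLC over mESC-2i (457 to 6483), intervals that cover counting error only. EpiLC exceeded mESC-ser by 5.06 ± 0.12 on the log2 scale (SE, edgeR adjusted p = 7.94e-15).

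**Figure D1:**
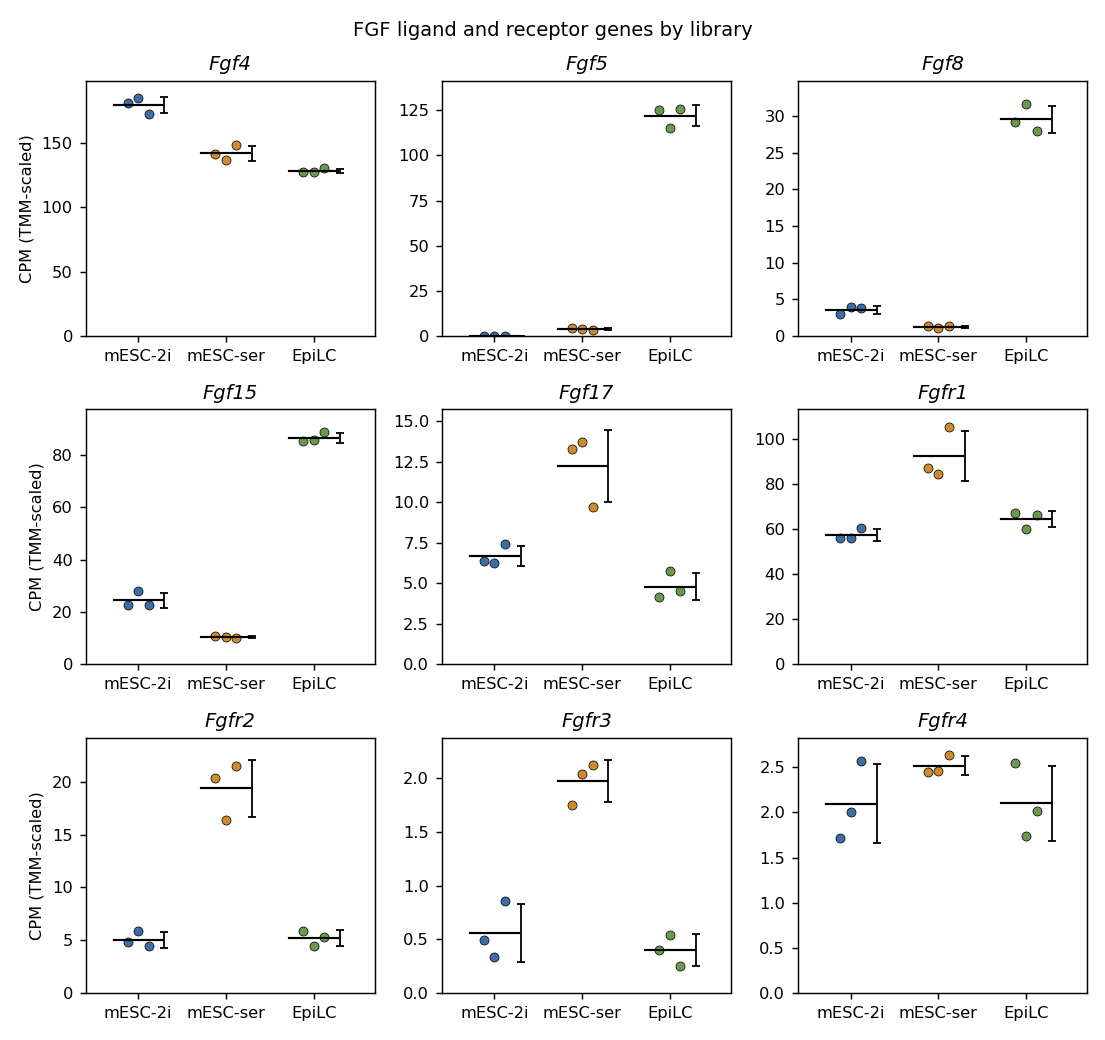
TMM-scaled CPM (vertical axis, from 0, a separate scale for each gene) of the 9 genes in the 3 states. Each point is a library, the horizontal line is the mean and the bracket is ± SD over 3 libraries. Fgf5, Fgf8 and Fgf15 are highest in EpiLC, Fgf17 and Fgfr1 to Fgfr3 in mESC-ser (Fgfr1 not so with a length and GC correction), Fgf4 in mESC-2i, and the states overlap for Fgfr4.

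Fgf8 encodes a ligand that the embryo uses in gastrulation and in the midbrain organiser. Its level was 2.95, 4.0 and 3.82 CPM in the mESC-2i libraries, 1.33, 1.10 and 1.38 CPM in those of mESC-ser, and 29.1, 31.6 and 27.9 CPM in EpiLC. The 3 states were again separate, with mESC-ser lowest. Fgf8 fell by 1.55 ± 0.23 on the log2 scale from mESC-2i to mESC-ser (edgeR adjusted p = 0.000167). EpiLC exceeded mESC-2i by 3.00 ± 0.15 (adjusted p = 3.91e-08) and mESC-ser by 4.60 ± 0.15 (adjusted p = 1.45e-13).

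Fgf15, the mouse counterpart of human FGF19, is best known as an intestinal hormone that restrains bile acid synthesis and is also expressed in the embryonic nervous system. It had the order of Fgf8 on a smaller scale. The libraries stood at 22.6, 27.8 and 22.8 CPM in mESC-2i, at 10.8, 10.4 and 9.93 CPM in mESC-ser and at 85.4, 85.5 and 88.7 CPM in EpiLC, without overlap. The fall from mESC-2i to mESC-ser was -1.29 ± 0.13 on the log2 scale (edgeR adjusted p = 1.26e-05), and the rise to EpiLC was 1.81 ± 0.10 from mESC-2i (adjusted p = 1.1e-07) and 3.15 ± 0.093 from mESC-ser (adjusted p = 4.93e-14). Fgf15 shares 761 bp of exon with Gm26793 on the opposite strand, which held 2 to 8 counts in a library, few beside the 122 to 788 of Fgf15.

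Fgf4 varied least among the ligand genes. It stood at 181, 185 and 172 CPM in mESC-2i, at 141, 137 and 148 CPM in mESC-ser and at 127, 127 and 130.3 CPM in EpiLC. The 3 states did not overlap, but the differences were small. The difference of mESC-ser from mESC-2i was -0.39 ± 0.092 on the log2 scale (edgeR adjusted p = 0.00331), short of the fold threshold. EpiLC lay 0.50 below mESC-2i (log2 fold change -0.50 ± 0.083, adjusted p = 0.000221), just past the threshold, and the difference of EpiLC from mESC-ser was -0.06 ± 0.076 (adjusted p = 0.450). The call for EpiLC against mESC-2i was lost, with values between -0.49 and -0.22, under RLE scaling, with DESeq2, with a correction for length and GC content, and on leaving out EpiLC replicate 1 or 2 or mESC-2i replicate 1 or 2.

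Fgf17, a relative of Fgf8 that binds the same receptor isoforms, ran the other way. Its level was 6.39, 6.25 and 7.41 CPM in the mESC-2i libraries, 13.3, 13.7 and 9.70 CPM in those of mESC-ser and 4.16, 5.75 and 4.52 CPM in EpiLC. mESC-ser was highest, and no library of 1 state overlapped those of another. Fgf17 rose by 0.80 ± 0.18 on the log2 scale from mESC-2i to mESC-ser (edgeR adjusted p = 0.00233), and EpiLC lay below mESC-ser by -1.23 ± 0.19 (adjusted p = 1.05e-05). The difference between EpiLC and mESC-2i was -0.48 ± 0.19 (adjusted p = 0.0364), short of the fold threshold. That last comparison passed the threshold, at -0.50 to -0.87, with total-count scaling, without a filter, with a minimum of 10 counts, with the length and GC correction and without EpiLC replicate 2.

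Among the receptor genes, Fgfr1, the main FGF receptor of the epiblast, was highest in mESC-ser on the TMM scale, though not with a length and GC correction. The libraries stood at 55.9, 56.1 and 60.7 CPM in mESC-2i, at 87.3, 84.7 and 105 CPM in mESC-ser and at 67.0, 60.2 and 66.1 CPM in EpiLC. mESC-ser lay above both other states in all libraries, while 1 EpiLC library fell within the mESC-2i range. Fgfr1 rose by 0.63 ± 0.11 on the log2 scale from mESC-2i to mESC-ser (edgeR adjusted p = 0.000622), which became 0.44 and lost the call with the length and GC correction. EpiLC differed from mESC-2i by 0.14 ± 0.091 (adjusted p = 0.172) and from mESC-ser by -0.44 ± 0.094 (adjusted p = 0.000407), neither past both thresholds. The direction of these differences depended on the scaling: EpiLC against mESC-2i read -0.20 with total counts and 0.75, a call, with the length and GC correction, and EpiLC against mESC-ser read -0.78, a call, and 0.30. The opposite-strand gene Gm16159, which shares 164 bp of exon with Fgfr1, held at most 2 counts in a library.

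Fgfr2, whose isoforms serve the primitive endoderm, the trophoblast and many epithelia, had the largest fitted receptor difference between mESC-ser and mESC-2i. Its standard error overlapped that of Fgfr3 (1.71 ± 0.34 on the log2 scale), so their order is not settled. It stood at 4.79, 5.84 and 4.44 CPM in mESC-2i, at 20.4, 16.4 and 21.5 CPM in mESC-ser and at 5.91, 4.45 and 5.28 CPM in EpiLC. All 3 mESC-ser libraries lay above the other 6, which overlapped each other. Fgfr2 rose by 1.90 ± 0.17 on the log2 scale from mESC-2i to mESC-ser (edgeR adjusted p = 4.72e-06), and EpiLC lay below mESC-ser by -1.83 ± 0.16 (adjusted p = 1.07e-08). EpiLC and mESC-2i differed by 0.03 ± 0.19 (adjusted p = 0.908), a value that was -0.31 with total-count scaling and 0.79, a call, with the length and GC correction.

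The counts of Fgfr2 need a reservation. In GENCODE M21, 1 of its 27 transcripts starts inside the gene of the transcriptional co-repressor Ctbp2 and shares 314 bp of exon with it on the same strand, which extends Fgfr2 from 130266263 to 133123350 on chromosome 7. Fgfr2 held 4.41%, 5.07% and 4.36% as many counts as Ctbp2 in the mESC-2i libraries, 5.79%, 4.64% and 5.96% in those of mESC-ser and 5.16%, 4.13% and 5.13% in EpiLC, so this ratio overlapped between the states. The same ratio for Fgfr1 ran from 24% to 29.1% in mESC-ser and from 48.8% to 64.3% in the other 6 libraries. Ctbp2 itself rose by 1.66 ± 0.096 on the log2 scale from mESC-2i to mESC-ser (edgeR adjusted p = 2.8e-07), and EpiLC differed from mESC-2i by -0.02 ± 0.089 (adjusted p = 0.837). How reads in shared exons were assigned is not given in the sources used here, and the part of Ctbp2 reads in the Fgfr2 result was not tested.

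Fgfr3, a receptor best known from the growth plate and the nervous system, was near the limit of detection outside mESC-ser. It held 4, 4 and 11 counts in mESC-2i, 25, 24 and 37 counts in mESC-ser and only 3, 5 and 2 in EpiLC, or 0.491, 0.334 and 0.858 CPM, 1.75, 2.04 and 2.12 CPM and 0.403, 0.542 and 0.251 CPM. The mESC-ser libraries were all higher than the other 6. Fgfr3 rose by 1.71 ± 0.34 on the log2 scale from mESC-2i to mESC-ser (edgeR adjusted p = 0.00133) and was lower in EpiLC than in mESC-ser by -2.17 ± 0.37 (adjusted p = 3.79e-05). It did not pass the filter on low counts for EpiLC against mESC-2i. Its exons share 998 bp with G630022F23Rik on the opposite strand, which was not among the genes counted, and the kit did not mark strand.

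Fgfr4, the receptor through which FGF15 acts in liver, was not called in any comparison. Its libraries stood at 1.72, 2.00 and 2.57 CPM in mESC-2i, at 2.45, 2.46 and 2.64 CPM in mESC-ser and at 2.55, 1.74 and 2.01 CPM in EpiLC. The 3 ranges overlapped. The log2 differences were 0.18 ± 0.23 for mESC-ser against mESC-2i (edgeR adjusted p = 0.489), -0.05 ± 0.27 for EpiLC against mESC-2i (adjusted p = 0.864) and -0.20 ± 0.23 for EpiLC against mESC-ser (adjusted p = 0.441). With total-count scaling the last was -0.54 and passed the threshold.

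**Figure D2:**
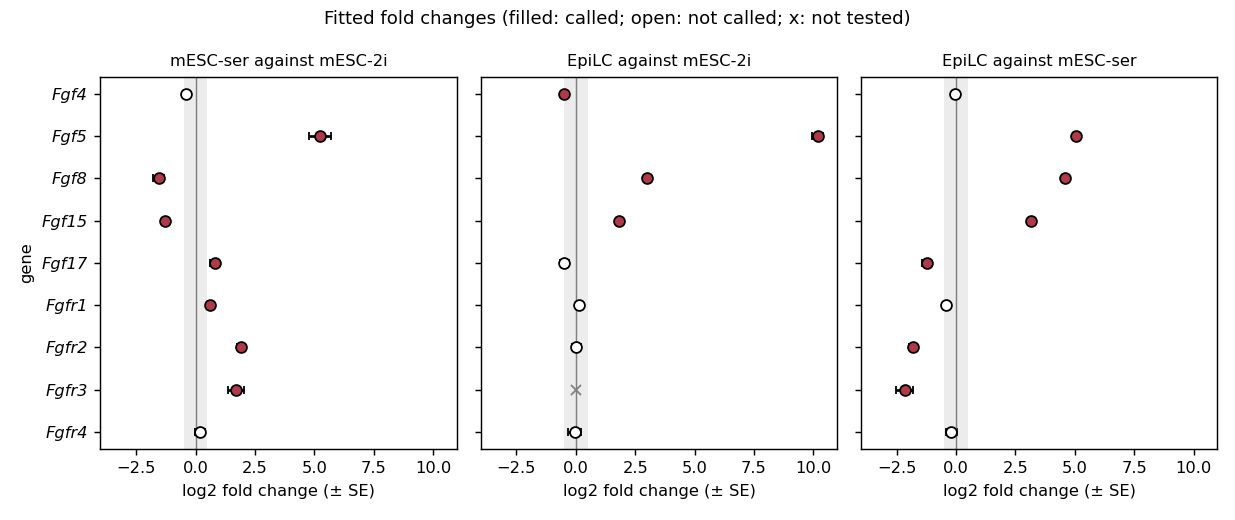
Log2 fold changes from edgeR (horizontal axis, bars ± SE) of the 9 genes in the 3 comparisons. Filled points were called, open points were not, the cross marks a gene that was not tested, and the grey band is the fold threshold of 0.5. Fgf5, Fgf8 and Fgf15 lie to the right of the band in both EpiLC panels, and Fgfr2 and Fgfr3 lie to the right for mESC-ser against mESC-2i.

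Counted together, 7 of the 9 genes were called between mESC-ser and mESC-2i, where 56.2% of the 15728 tested genes were called. Higher in mESC-ser were 5 genes (Fgf5, Fgf17, Fgfr1, Fgfr2 and Fgfr3) beside a background of 25.9%, and lower were 2 (Fgf8 and Fgf15) beside 30.3%. The median log2 fold change of the 9 was 0.63, against -0.04 for all tested genes. For EpiLC against mESC-2i, 8 were tested and 4 called, where the background was 69.8% of 15378 genes. Of these, 3 were higher (Fgf5, Fgf8 and Fgf15; background 32.0%) and 1 was lower (Fgf4; background 37.8%), with a median of 0.08 against -0.11. For EpiLC against mESC-ser, 6 of 9 were called, where the background was 73.3% of 15345 genes. The same 3 ligand genes were higher (background 35.5%) and Fgf17, Fgfr2 and Fgfr3 were lower (background 37.8%), with a median of -0.20 against -0.07. The 3 comparisons share libraries pairwise and are not independent of each other. Changes in EpiLC are best read against the scaling, since total counts moved the median of all genes from -0.11 to -0.45 against mESC-2i and from -0.07 to -0.41 against mESC-ser.

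Per kilobase of exon, Fgf4 led in both stem cell states, at 56.2 ± 1.99 RPKM in mESC-2i and 44.4 ± 1.81 RPKM in mESC-ser (SD, n = 3), and Fgf5 led in EpiLC at 48.8 ± 2.40 RPKM. The full order by RPKM in mESC-2i was Fgf4, Fgf15, Fgfr1, Fgf17, Fgf8, Fgfr4, Fgfr2, Fgfr3 and Fgf5, in which Fgfr4 and Fgfr2, and Fgfr3 and Fgf5, overlapped. In mESC-ser it was Fgf4, Fgfr1, Fgf17, Fgf15, Fgfr2, Fgf5, Fgf8, Fgfr4 and Fgfr3, in which Fgfr2 and Fgf5 overlapped. In EpiLC it was Fgf5, Fgf4, Fgf15, Fgf8, Fgfr1, Fgf17, Fgfr4, Fgfr2 and Fgfr3, in which Fgfr4 and Fgfr2 overlapped. Fgf5 thus moved from the last place in mESC-2i to the first in EpiLC, and Fgfr1 led the receptor genes in all 3 states. How far Fgf5 stood above the next ligand gene depended on the length used: with the longest transcript, Fgf5, Fgf15 and Fgf4 made up 29.2%, 28.6% and 25.3% of the ligand sum for EpiLC, and in CPM, which takes no account of length, Fgf4 made up 34.6% and Fgf5 32.9%.

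The 5 ligand genes together reached 70.8 ± 2.61 RPKM in mESC-2i (SD, n = 3), fell to 57.6 ± 0.875 RPKM in mESC-ser and came to 142 ± 1.44 RPKM in EpiLC. Fgf4 made up 79.3% of that sum for mESC-2i, 77.2% for mESC-ser and 28.3% for EpiLC (exact permutation test over the 9 libraries, adjusted p = 0.0161). The share of Fgf5 went from 0.0453% to 2.71% and 34.4%, that of Fgf8 from 3.75% to 1.63% and 15.4%, that of Fgf15 from 11.3% to 5.89% and 19.9%, and that of Fgf17 from 5.60% to 12.6% and 2.01%. Each of these 4 shares had the smallest p that the exact permutation test allows (0.00357, adjusted 0.00804 over the 9 shares tested). The ligand shares add up to the whole, so they are not separate tests. The adjustment covers only genes chosen with earlier results of these data known. The permutation test exchanges all 9 libraries freely. Same-number mESC-ser and mESC-2i libraries, however, had correlated deviations (0.157 to 0.379, against -0.310 to 0.160 for different numbers). With exchanges only within a replicate number (216 arrangements, a replicate block chosen after seeing the data), the 4 shares again had the smallest p possible, 0.0278, but none of the 9 shares passed after adjustment (0.0625 for these 4 and 0.0833 for Fgf4). A smallest p of 0.0278 leaves little room to pass after adjustment over 9 shares, so the block could hardly decide the question. In EpiLC the sum of these 5 genes was therefore split mainly over 4 of them, where a single gene had supplied most of it in both stem cell states. FGF genes outside the sum were not all lower than its members. Fgf3 stood at 3.11 RPKM in mESC-2i, Fgf18 at 3.33 RPKM in mESC-ser and Fgf11, an intracellular family member, at 2.94 RPKM in EpiLC. In the same states, Fgf8 stood at 2.66 and 0.941 RPKM and Fgf17 at 2.85 RPKM.

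**Figure D3:**
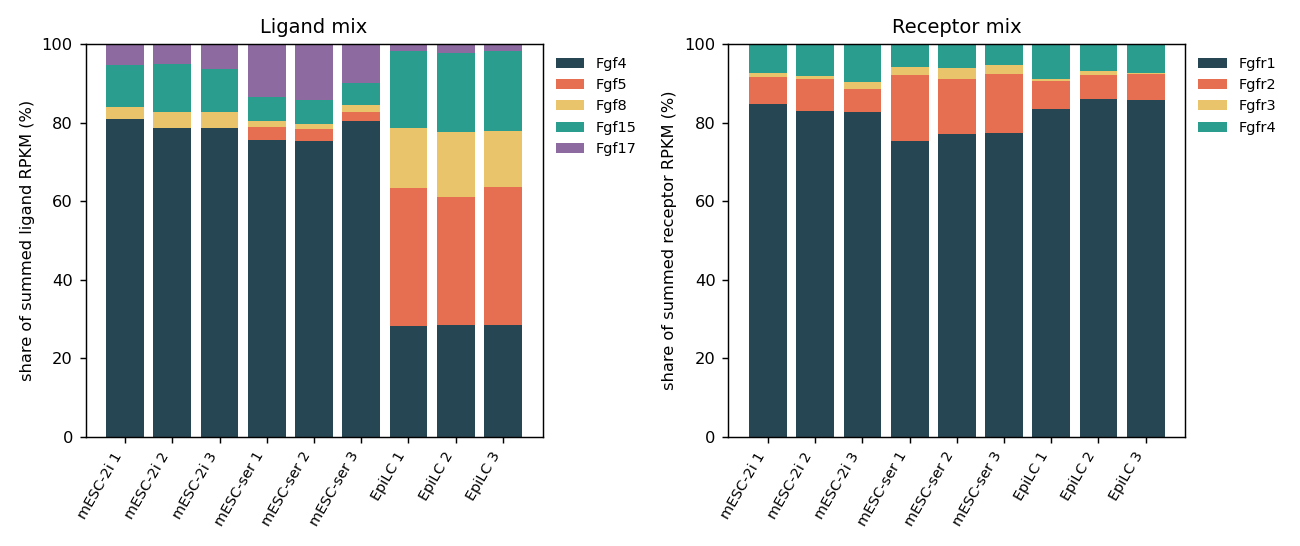
Share of each gene in the summed RPKM of the 5 ligand genes (left) and the 4 receptor genes (right), in percent, with a bar for each library. Fgf4 fills 75.4% to 80.9% of the ligand bars of the stem cell states and 28.1% to 28.4% in EpiLC, and Fgfr2 takes 14.2% to 16.8% of the receptor bars in mESC-ser against 5.80% to 8.24% elsewhere. The part of Ctbp2 reads in the Fgfr2 bars was not tested.

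The 4 receptor genes summed to 6.98 ± 0.387 RPKM for mESC-2i, 12.2 ± 1.38 RPKM for mESC-ser and 7.68 ± 0.530 RPKM for EpiLC. Fgfr1 made up 83.5%, 76.5% and 85.0% of that sum (exact permutation test, adjusted p = 0.0129), Fgfr2 6.99%, 15.4% and 6.55% (adjusted p = 0.0281), Fgfr3 1.11%, 2.26% and 0.737% (adjusted p = 0.0230) and Fgfr4 8.43%, 5.85% and 7.68% (adjusted p = 0.0536, not past the threshold). Within the replicate block the adjusted p of these 4 shares ran from 0.0833 to 0.167. The reservation on the Fgfr2 counts, whose ratio to Ctbp2 counts overlapped between the states, applies to the sum and to all 4 shares. The part of Ctbp2 reads in them was not tested. The lower Fgfr1 share in mESC-ser rested on Fgfr2: with Fgfr2 left out of the sum, an alternative chosen after seeing the data, Fgfr1 made up 89.8%, 90.4% and 91.0% (adjusted p = 0.475). The Fgfr3 share lost its call without any 1 of the 3 mESC-ser libraries (adjusted p = 0.0603 each time).

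Cells that use these genes in the embryo were looked for by their markers. The 5 primitive endoderm markers (Gata6, Gata4, Sox17, Sox7 and Pdgfra) summed to 9.09 to 9.46 CPM in mESC-2i, to 13.9 to 15.7 CPM in mESC-ser and to 1.38 to 2.60 CPM in EpiLC, with 2, 4 and 1 of the 5 at a mean of 1 CPM or more. None was at 0 in a whole state. The sum was highest in mESC-ser, where Fgfr2 was highest. Gata6, Sox7 and Pdgfra were called higher there than in mESC-2i with edgeR (log2 fold changes 2.26, 1.42 and 0.67), while Gata4 was lower (-0.50 ± 0.18, adjusted p = 0.0315), and Sox17 was not tested. The part of these cells in the Fgfr2 result, like that of Ctbp2 reads, was not tested. The 5 primitive streak markers (T, Mixl1, Eomes, Mesp1 and Tbx6) summed to 94.4 to 116 CPM in mESC-2i, to 13.0 to 16.4 CPM in mESC-ser and to 15.0 to 17.2 CPM in EpiLC, with 3, 2 and 4 of the 5 at a mean of 1 CPM or more. T carried the sum in mESC-2i, with means of 85.5, 4.38 and 1.35 CPM in the same order. Eomes (15.6, 8.65 and 9.80 CPM) also had its highest mean in mESC-2i, and Mesp1 held at most 3 counts in a library. Mixl1 (0.918, 0.430 and 1.91 CPM) and Tbx6 (1.03, 0.807 and 2.60 CPM) had their highest mean in EpiLC, as Fgf8 did. Mixl1 was low, with 22, 14 and 10 counts in EpiLC against 4, 15 and 13 in mESC-2i. The part of cells with these markers in the Fgf8 result was not tested. The 5 trophoblast markers (Cdx2, Elf5, Tfap2c, Gata3 and Krt7) summed to 81.8 to 93.4 CPM, 45.2 to 50.9 CPM and 8.03 to 8.17 CPM in the same order, with 4, 4 and 2 of the 5 at a mean of 1 CPM or more, and Elf5 was at 0 in EpiLC. Tfap2c carried the sum in mESC-2i and mESC-ser, with means of 65.5, 34.9 and 1.12 CPM over the states. Cdx2 fell as well (15.5, 2.44 and 0.279 CPM). Gata3, however, had its highest mean in mESC-ser (1.31, 5.28 and 0.0838 CPM), and Krt7 had its highest in EpiLC (5.89, 4.40 and 6.60 CPM). In bulk RNA, fewer cells with a transcript and less of it in each cell cannot be told apart.

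Of the other 17 FGF genes, most were scarce. These were counted as a single list, although Fgf11 to Fgf14 encode intracellular members. Fgf6 was at 0 in all 9 libraries and Fgf2, the ligand added to the EpiLC medium, held at most 3 counts in any library. In mESC-ser, 3 of 6 tested genes were higher than in mESC-2i (Fgf1, Fgf13 and Fgf18) and 3 were lower (Fgf3, Fgf10 and Fgf11), with a median log2 fold change of -0.27, where 25.9% and 30.3% of all tested genes were higher and lower (median -0.04). Fgf1, a ligand that binds all FGF receptors, had 0.246 to 0.546 CPM in mESC-2i and 6.19 to 7.46 CPM in mESC-ser (log2 fold change 4.03 ± 0.28, edgeR adjusted p = 8.5e-07). Fgf18, a bone and lung ligand, had 0.491 to 1.00 CPM and 3.57 to 4.33 CPM (2.37 ± 0.28, adjusted p = 3.24e-05). Fgf3, which lies next to Fgf4, fell with Fgf8 and Fgf15, from 5.03 to 9.17 CPM in mESC-2i to 0.919 to 1.33 CPM in mESC-ser (-2.74 ± 0.27, adjusted p = 9.7e-06).

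Fgf10, the limb and lung ligand that signals through FGFR2, was nearly absent from EpiLC. Its counts were 61, 78 and 89 in mESC-2i, 37, 30 and 35 in those of mESC-ser and 1, 0 and 0 in EpiLC. The pooled ratio of mESC-2i to EpiLC was 170.3 (95% exact interval 30.3 to 6757). EpiLC had gained Fgf9, a mesenchyme-directed ligand, with 26, 32 and 18 counts against 0, 1 and 0 in mESC-2i (pooled ratio 102, 17.7 to 4070), and Fgf21, a metabolic hormone, with 13, 21 and 20 counts against 0, 2 and 0 (36.1, 9.53 to 306). Fgf13, an intracellular member that does not act through the receptors, was higher in EpiLC by 1.99 ± 0.31 on the log2 scale (edgeR adjusted p = 0.000157). In all, 3 of 6 tested genes were higher and 2 lower in EpiLC than in mESC-2i (Fgf3 and Fgf10 lower, median 1.22; background 32.0% and 37.8%, median -0.11), and 5 of 8 were higher (Fgf3, Fgf9, Fgf11, Fgf13 and Fgf21) and 3 lower (Fgf1, Fgf10 and Fgf18) than in mESC-ser (median 1.42; background 35.5% and 37.8%, median -0.07).

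**Figure D4:**
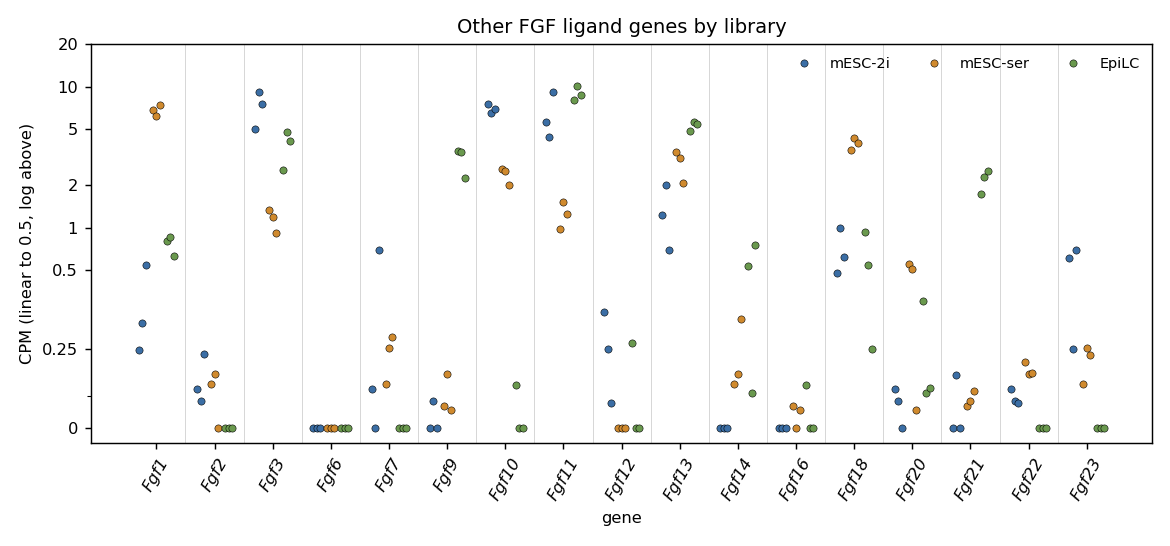
TMM-scaled CPM of the 17 other FGF genes, with a point for each library. The vertical axis is linear up to 0.5 CPM and logarithmic above. Fgf1 and Fgf18 stand out in mESC-ser, Fgf9 and Fgf21 in EpiLC, and Fgf10 drops to 0 to 0.134 CPM in EpiLC.

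The proteins that work with the receptors moved in both directions. Of 7 tested co-receptor and partner genes, 1 was higher (Fgfbp1) and 4 were lower (Fgfrl1, Klb, Fgfbp3 and Nptn) in mESC-ser than in mESC-2i, with a median log2 fold change of -0.65 (background 25.9% higher and 30.3% lower, median -0.04). In EpiLC all 7 were below mESC-2i, from -4.18 to -0.42, and 5 were called lower with edgeR (Fgfrl1, Klb, Fgfbp3, Flrt3 and Nptn; median -1.73), where 37.8% of all genes were lower (median -0.11). Against mESC-ser, 2 were higher in EpiLC (Fgfrl1 and Fgfbp3) and 4 lower (Klb, Fgfbp1, Flrt3 and Nptn), with a median of -1.03 (background 35.5% and 37.8%, median -0.07). Fgfrl1, a receptor-like protein without a kinase domain, held 28.5 to 33.5 CPM in mESC-2i but 8.48 to 10.5 CPM in mESC-ser and 11.5 to 13.8 CPM in EpiLC, and so was lower in both other states (log2 fold change -1.78 ± 0.14 and -1.26 ± 0.13, edgeR adjusted p = 1.78e-06 and 5.13e-06). Fgfbp1 and Fgfbp3, carrier proteins that release FGFs from the matrix, moved apart in mESC-ser, by 2.45 ± 0.20 and -4.11 ± 0.21 (adjusted p = 3.2e-06 and 1.02e-07). In EpiLC, Fgfbp3 was lower than in mESC-2i by -2.18 ± 0.17 (adjusted p = 7.6e-07), and Fgfbp1 was lower than in mESC-ser by -2.82 ± 0.16 (adjusted p = 5.99e-11).

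Heparan sulfate genes were mostly lower in EpiLC. Of 20 tested, 5 were higher (Ext1, Hs2st1, Hs6st2, Glce and Sulf1) and 7 lower in mESC-ser than in mESC-2i, with a median log2 fold change of -0.33, beside 25.9% and 30.3% of all genes (median -0.04). In EpiLC 3 were higher (Sdc1, Sdc2 and Hs6st2) and 15 lower than in mESC-2i (median -1.20; background 32.0% and 37.8%, median -0.11), and 2 were higher (Sdc1 and Sdc2) and 11 lower than in mESC-ser (median -0.77; background 35.5% and 37.8%, median -0.07). The core protein gene Sdc3 was lower in EpiLC than in mESC-2i by -4.08 ± 0.19 on the log2 scale (edgeR adjusted p = 2.19e-08) and the sulfotransferase gene Ndst1 by -3.16 ± 0.16 (adjusted p = 3.54e-08). The sulfotransferase gene Hs6st2 was higher, by 2.12 ± 0.26 (adjusted p = 2.51e-05). In mESC-ser, Ext1, which polymerises the chain, was higher than in mESC-2i by 1.38 ± 0.10 (adjusted p = 1.45e-06) and Sdc4 was lower by -2.10 ± 0.12 (adjusted p = 2.31e-07).

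Of the 20 genes of the relay from adaptor to ERK, 6 were higher and 1, the adaptor gene Frs3, was lower in mESC-ser than in mESC-2i (median 0.14), where 25.9% and 30.3% of all genes were higher and lower (median -0.04). In EpiLC 5 were higher and 9 lower than in mESC-2i (median -0.45; background 32.0% and 37.8%, median -0.11), and 4 were higher and 11 lower than in mESC-ser (median -0.69; background 35.5% and 37.8%, median -0.07). The share of relay genes higher in mESC-ser than in mESC-2i was thus near that of all genes, and so was the share lower in EpiLC than in mESC-2i. The kinase gene Braf rose by 2.26 ± 0.20 on the log2 scale in mESC-ser (edgeR adjusted p = 4.86e-06). In EpiLC the GTPase gene Hras was higher than in mESC-2i by 1.80 ± 0.13 (adjusted p = 5.54e-07), while the exchange factor gene Sos2 and the scaffold gene Ksr1 were lower by -2.73 ± 0.21 and -2.65 ± 0.22 (adjusted p = 6.93e-07 and 1.38e-06). With the length and GC correction, the genes called lower fell to 5 and 6 in the EpiLC comparisons.

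Feedback and ERK-responsive genes were mostly lower in mESC-2i, the state with the MEK inhibitor, than in mESC-ser. mESC-2i also had the GSK3 inhibitor and no serum, so these differences in medium cannot be told apart, and the cause was not tested. All 16 had a positive log2 fold change in mESC-ser, from 0.42 to 6.43, and 15 were called (median 1.60, against -0.04 for all genes, of which 25.9% were higher), the exception being Etv5. In EpiLC 10 were higher and 3 lower (Spry2, Il17rd and Fos) than in mESC-2i (median 1.64; background 32.0% and 37.8%, median -0.11). EpiLC compared with mESC-ser had 2 higher and 10 lower (median -1.26; background 35.5% and 37.8%, median -0.07). With total-count scaling, the genes called lower than in mESC-2i became 5 and those called higher than in mESC-ser became 1. Spry4, a Sprouty inhibitor of receptor signalling, held 15, 17 and 34 counts in mESC-2i against 1996 to 3486 in mESC-ser and 311 to 361 in EpiLC (log2 fold change from mESC-2i 6.43 ± 0.19 and 4.37 ± 0.19, edgeR adjusted p = 8.1e-09 and 1.59e-08). Egr1, an immediate early factor, rose by 5.64 ± 0.19 and 4.35 ± 0.27 (adjusted p = 1.53e-08 and 1.89e-07). Dusp6, the phosphatase that inactivates ERK, was one of 2 genes higher in EpiLC than in mESC-ser, by 0.70 ± 0.085 (adjusted p = 8.36e-07), the other being Spred3 (1.28 ± 0.13, adjusted p = 1e-07).

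**Figure D5:**
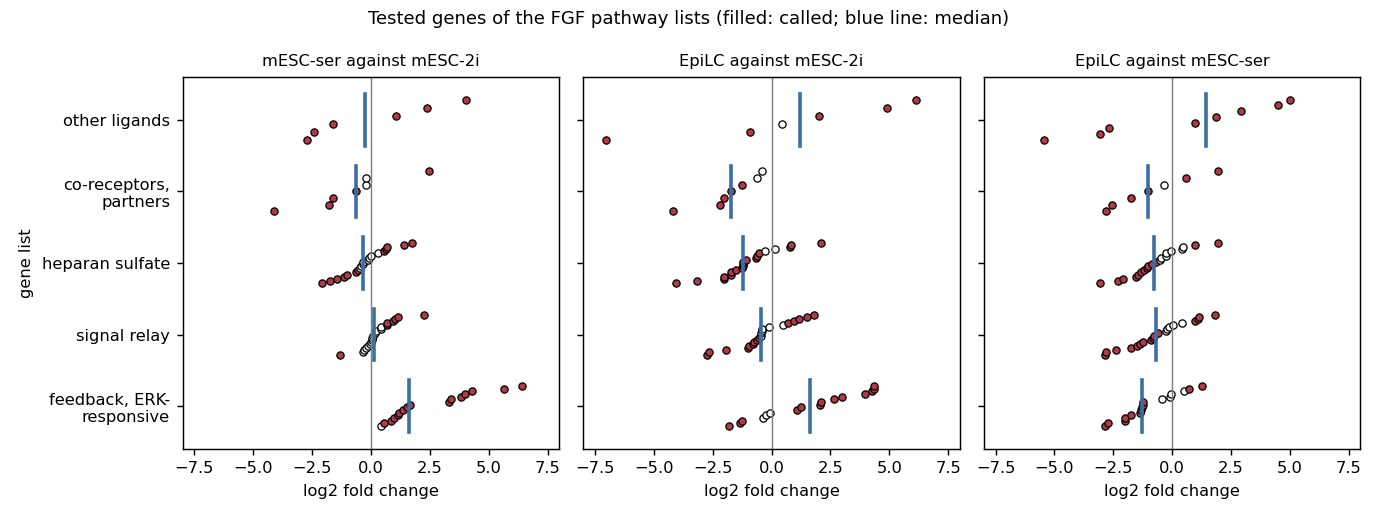
Log2 fold changes (horizontal axis) of the tested genes of 5 pathway lists in the 3 comparisons. Filled points were called and open points were not, and the blue bar is the median of the list. Feedback and ERK-responsive genes lie to the right in both comparisons with mESC-2i (medians 1.60 and 1.64) and mostly to the left for EpiLC against mESC-ser (median -1.26).

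The nearest protein-coding neighbours gave a further view of the ligand genes. Cfap299, 52274 bp beyond Fgf5, rose with it in EpiLC, with 17, 23 and 18 counts against 1, 2 and 1 in mESC-2i (pooled ratio 19.4, 95% exact interval 7.19 to 73.6), whereas Prdm8 on the other side was too low to be tested. Npm3, 4819 bp from Fgf8, was higher in EpiLC than in mESC-2i by 1.38 ± 0.13 on the log2 scale (edgeR adjusted p = 2.52e-06), but was not called in mESC-ser (-0.22 ± 0.13, adjusted p = 0.161), where Fgf8 fell. Fbxw4, 76486 bp away on the other side of Fgf8, was lower in mESC-ser than in mESC-2i by -2.60 ± 0.20 (adjusted p = 2.06e-06) and higher in EpiLC than in mESC-ser by 2.62 ± 0.17 (adjusted p = 4.1e-10), while EpiLC and mESC-2i differed by -0.03 ± 0.12 (adjusted p = 0.822). Dmtn, 155 bp from Fgf17, was lower in EpiLC than in mESC-2i by -2.29 ± 0.12 (adjusted p = 5.45e-08) and, unlike Fgf17, was lower in mESC-ser as well (-0.64 ± 0.10, adjusted p = 0.00031). LTO1, 14147 bp beyond Fgf15, was not called in any comparison. Not all neighbours of the receptor genes are listed. Nsd1, 41023 bp from Fgfr4, rose by 1.61 ± 0.15 from mESC-2i to mESC-ser (adjusted p = 8.59e-06), where Fgfr4 itself was not called. Tacc1, Letm2 and Wdr11 were not called in that comparison (-0.42, 0.29 and -0.45), in which 56.2% of all tested genes were called.

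Genes with the pattern most like each of the 9 were sought among 10998 protein-coding genes, by the root-mean-square difference of log2 CPM over the 9 libraries after each gene was centred on its mean. Fgf4 was nearest to Ccni (0.06) and Adgra3 (0.06), and Fgfr1 to Ptbp1 (0.07) and Kif18b (0.07). The difference is not scaled to the range of a gene, so values for genes of unlike range cannot be compared. Fgf5, with its wide range, was nearest to Tmem54 (0.35) and Car4 (0.53). Both had the order of states of Fgf5, with means of 0.0260, 3.12 and 72.2 CPM for Tmem54 and 0.163, 11.6 and 219 CPM for Car4 (mESC-2i, mESC-ser and EpiLC). The nearest to Fgf8 were Mfap4 (0.20) and Serpinf1 (0.22), to Fgf15 Mrpl52 (0.11) and Dpm3 (0.12), and to Fgf17 Tiparp (0.12) and Zfp605 (0.15). Fgfr2 was nearest to Acta1 (0.14) and then to Ctbp2 (0.16), the gene with which it shares exons. Fgfr3 was nearest to Akap17b (0.20) and Dcp2 (0.20), and Fgfr4 to Rgs9bp (0.10) and Lrsam1 (0.12).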

How the data were processed

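RNA-seq was performed on 9 libraries of E14 cells, 3 for each of 3 states (50 bp single-end reads, an unstranded kit). Per the submitters' notes, the authors used FastQC 0.11.0, Trim Galore 0.6.6, HISAT2 2.2.1 (mm10) and featureCounts of Subread 2.0.1. The deposited values are raw counts per Ensembl gene. Annotation release, strand setting and handling of reads with several alignments are not given in the sources used here. The serum columns were matched to samples by the initials of serum and LIF.

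Symbols, exonic lengths and positions came from GENCODE M21 (36429 of 38293 identifiers, 95.1%). Each pair of groups was fitted alone in edgeR 4.0.16 (R 4.3.3, limma 3.58.1) with filterByExpr, TMM, the quasi-likelihood F-test and Benjamini-Hochberg adjustment over all tested genes. The study used edgeR with the same fold threshold. Standard errors came from the F statistic. RPKM used all exonic bases of a gene. Shares were tested by an exact permutation of the between-group F over the 9 libraries. Ratios against groups with 3 counts or fewer in every library used pooled counts. DESeq2 1.42.0 was an alternative. The fits were tested on simulated data.

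The 9 genes, the pathway lists and the markers were chosen with earlier results of these data known. Genes named from a list are those with the largest called rises and falls (up to 2 of each) at a mean of 50 counts or more in the higher group, and genes of a count of 5 or fewer may be named. Values of some relay genes are not reported here. Of 10 co-receptor and partner genes, 9 were in the annotation. The length and GC correction was a spline with 5 degrees of freedom. Replicate numbers were taken to pair the libraries of 2 groups where all same-number deviations correlated above 0.1 over genes. By that rule they paired mESC-ser with mESC-2i, at 0.157 to 0.379. Deviations of different numbers correlated at -0.310 to 0.160, so the ranges overlapped slightly. The labels do not say whether a shared number marks a shared batch. No libraries were identical within sampling noise.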

Additional observations from a re-analysis of the deposited data

How the results depend on the processing

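Of 438 log2 fold changes of the 9 genes under the alternatives, 411 kept their side of the thresholds, of which 10 uncalled values changed sign, 11 lost a call, 16 gained one and no call changed sign. Those of Fgf4, Fgf17, Fgfr1, Fgfr2 and Fgfr4 are given with the values above. With a fold threshold of 1 on the log2 scale, 4935 genes were called for mESC-ser against mESC-2i (8843 at 0.5), and Fgf17 and Fgfr1 lost that call, as did Fgf4 for EpiLC against mESC-2i. With adjusted p alone, Fgf4 (mESC-ser against mESC-2i), Fgf17 (EpiLC against mESC-2i) and Fgfr1 (EpiLC against mESC-ser) were called too. Fgfr1 in the last comparison was also called without a filter (-0.52), with a minimum of 10 counts (-0.51), in a fit of all 9 libraries (-0.51) and without mESC-ser replicate 2 (-0.50). The share of calls that were higher in EpiLC was 45.9% against mESC-2i and 48.4% against mESC-ser, 33.7% and 37.4% with total-count scaling, and 56.0% and 56.1% with the length and GC correction, the cause of which was not tested. With the replicate number as a block, 7, 4 and 6 of the 9 genes were called, as without it, and 8953, 10759 and 11207 genes in all. The numbers paired no EpiLC libraries (same-number correlations 0.012 to 0.114 with mESC-2i and 0.0157 to 0.0354 with mESC-ser). Of 111 values for the shares, 95 kept their call. In the replicate block permutation, whose smallest possible p of 0.0278 leaves little room to pass after adjustment, all 8 called shares lost their call. Their ranges between states were as before, at 34.3 points for Fgf5, 13.8 for Fgf8, 14.04 for Fgf15, 10.59 for Fgf17, 51.1 for Fgf4, 8.53 for Fgfr1, 8.83 for Fgfr2 and 1.53 for Fgfr3. With the longest transcript as length, the Fgf4 share ranged over 49.7 percentage points between states (51.1 before), with mESC-ser highest. Without Fgfr2, the Fgfr1 share ranged over 1.24 points (8.53 before). Leaving out 1 library at a time gave ranges of 1.91 to 3.17 points for Fgfr4, called without mESC-2i replicate 1 or EpiLC replicate 1, 8.13 to 9.41 for Fgfr2 and 1.38 to 1.69 for Fgfr3. Of 210 counts over the pathway lists, 17 moved by more than 1.5 times. Depth limited Fgf5 in mESC-2i, Fgfr3 outside mESC-ser and most of the other FGF genes.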
